A study of Homo sapiens with 4 samples.

Results

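The MEIS, PBX and PKNOX genes encode homeobox proteins of the TALE class, and their levels are described here in 4 human cell lines of precursor B-cell acute lymphoblastic leukaemia (ALL). The members were 8 genes chosen by symbol: MEIS1, MEIS2, MEIS3, PBX2, PBX3, PBX4, PKNOX1 and PKNOX2. Of these, 7 had a probe set annotated to them alone and were among the 18377 genes tested. PBX2 was represented only by 2 probe sets that the platform annotation shares with its pseudogene PBX2P1, and these are described apart. Each gene measured alone had 1 such probe set.

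Total RNA of each line was hybridised to 1 Affymetrix whole-transcript array. The lines with the translocation t(4;11), in which the MLL gene (KMT2A) is rearranged, were RS4;11 and SEM. The lines lacking it were NALM6 and REH, both also precursor B-cell ALL. All 4 were grown in RPMI medium with fetal bovine serum, without further treatment. The question was how transcript levels differ with the MLL rearrangement. Each group consists of 2 established lines, so that any other difference between the lines also enters the comparison, and p-values measure the spread between lines, with culture and array included. As background, REH carries an ETV6-RUNX1 fusion and NALM6 a DUX4 rearrangement.

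TALE homeodomain proteins have a short extra loop in the homeodomain and bind DNA mostly together with other homeobox proteins. PBX proteins pair with many HOX proteins on composite sites. MEIS and PKNOX (also called PREP) proteins bind PBX through a domain at their amino-terminal end, which keeps PBX in the nucleus and protects it from loss, and MEIS1 also binds HOX proteins of the posterior groups. In blood, MEIS1 is high in stem and early progenitor cells and is switched off as cells mature, and it is a well known direct target of KMT2A fusion proteins. With HOXA9 it transforms mouse marrow cells, and PBX3 is known as a further partner in this setting.

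The sequence around the start site is shown for 4 of these genes: MEIS1, which passed the test between the groups; PKNOX1, the other gene that had an unadjusted p below the threshold; and MEIS2 and PBX3, which were lowest in REH. The windows hold 250 bases before and 50 bases after a transcription start from RefSeq on GRCh38.p14, and each is written 5′ to 3′ on the gene's strand. They lie at chr2:66434875-66435174 on the plus strand (MEIS1), chr21:42974312-42974611 on the plus strand (PKNOX1), chr15:37098647-37098946 on the minus strand (1 of 2 windows of MEIS2) and chr9:125747933-125748232 on the plus strand (PBX3). Capitals mark matches to a MEIS site (TGACAG) or a PBX-HOX composite site (TGATTNAT), searched on both strands.
MEIS1: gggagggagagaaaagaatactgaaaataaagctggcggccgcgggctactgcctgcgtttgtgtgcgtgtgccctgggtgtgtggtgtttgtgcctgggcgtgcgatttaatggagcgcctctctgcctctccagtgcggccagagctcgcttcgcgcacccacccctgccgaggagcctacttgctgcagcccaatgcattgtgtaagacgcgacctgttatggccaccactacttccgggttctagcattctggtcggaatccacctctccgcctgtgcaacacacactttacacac
PKNOX1: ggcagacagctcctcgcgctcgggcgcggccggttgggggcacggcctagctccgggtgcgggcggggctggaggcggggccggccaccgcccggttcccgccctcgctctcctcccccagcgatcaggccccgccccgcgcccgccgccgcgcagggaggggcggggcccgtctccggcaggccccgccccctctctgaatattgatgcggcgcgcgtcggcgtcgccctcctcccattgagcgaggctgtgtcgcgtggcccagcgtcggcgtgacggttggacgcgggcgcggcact
MEIS2: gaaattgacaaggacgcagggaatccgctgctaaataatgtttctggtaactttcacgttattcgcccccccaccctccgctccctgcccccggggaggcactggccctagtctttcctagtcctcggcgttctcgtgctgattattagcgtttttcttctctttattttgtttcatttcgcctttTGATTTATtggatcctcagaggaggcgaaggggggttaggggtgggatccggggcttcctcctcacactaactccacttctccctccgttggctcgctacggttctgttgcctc
PBX3: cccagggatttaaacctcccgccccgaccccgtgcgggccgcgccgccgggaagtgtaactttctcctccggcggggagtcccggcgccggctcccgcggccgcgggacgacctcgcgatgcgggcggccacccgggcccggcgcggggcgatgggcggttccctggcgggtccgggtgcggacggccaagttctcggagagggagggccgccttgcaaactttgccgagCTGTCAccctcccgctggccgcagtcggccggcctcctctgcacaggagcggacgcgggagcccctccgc
The MEIS2 window holds 1 PBX-HOX match, which starts 64 bases before the start site, and the PBX3 window 1 MEIS match on the opposite strand, which starts 20 bases before it. The windows of MEIS1 and PKNOX1 hold neither motif. Of 35116 promoter windows of this length, 15.8% held a MEIS site and 2.82% a PBX-HOX site. In all, 9 windows belonged to 7 of the 8 genes, and 1 of them held a MEIS site and 1 a PBX-HOX site. A match in these letters is a description and does not show that a protein binds there. The windows of PKNOX1 (78.7% G and C, 46 CpG) and PBX3 (76.0%, 43 CpG) were rich in CpG, and 4.02% and 7.83% of all windows had at least that much G and C. Those of MEIS1 (58.3%, 18 CpG) and of this MEIS2 start (53.0%, 16 CpG) lay close to and below the median of 58.7%.

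Expression is given on the log2 scale, as the submitters processed it. The median over all probe sets of an array lay between 6.40 and 6.46, the 25th percentile between 4.97 and 5.02 and the 75th percentile between 8.94 and 8.97. No detection call was given, so values near 5 cannot be told from background, and a fold against such a value is compressed. Differences between lines are taken within a gene, since probes differ between genes. Medians over a list and places against the percentiles of an array mix the probes of different genes and are only a rough guide to level. Of 12 measured B-precursor markers, 1 was called lower in the t(4;11) lines by limma (0.0109% of all genes were) and 0 higher, and 4 were lower at an unadjusted limma p below 0.05, which 9.39% of all genes reached in either direction. In 7 of the 12 both t(4;11) lines lay below both others, and in 0 above them, where 19.8% of all genes were lower in this sense. The median difference of the 12 was -1.33, with medians of 10.64 in RS4;11 and 7.60 in SEM, against 11.16 in NALM6 and 11.63 in REH. The marker that passed was MME, the CD10 gene, at 5.44 ± 0.14 in the t(4;11) lines and 12.52 ± 0.06 in the others (SD, n = 2 each). DNTT, the terminal transferase gene, was at 6.88 and 5.11, against 11.54 and 12.43, BLNK, a pre-B receptor adaptor gene, at 7.15 and 5.35, against 10.66 and 11.74, and CD24, a surface antigen gene, at 10.50 and 6.33, against 12.49 and 12.19, in the same order of lines. CD79B and RAG1, 2 others of the 7, were at 9.99 and 7.24 in RS4;11 and 7.63 and 6.33 in SEM, against 10.87 and 7.95 in NALM6 and 11.02 and 8.97 in REH. The markers named so far moved with the same split of the lines as MEIS1 below. The median of the list was lowest in SEM. VPREB1, CD72 and IGLL1, also of the 12, did not follow this split. VPREB1 was at 11.35 in RS4;11 and 7.57 in SEM, against 10.86 in NALM6 and 5.51 in REH. In the same order, CD72 was at 11.49 and 10.25, against 10.74 and 9.69, and IGLL1 at 10.78 and 8.66, against 10.70 and 10.73. PAX5, CD22 and CD79A, named after their values were seen, lay between 11.05 and 12.35 in all 4 lines. CD22, the last of the 7, was at 11.40 in RS4;11 and 11.10 in SEM, against 11.54 in NALM6 and 11.65 in REH. The T cell marker genes CD3D, CD3E and CD3G were at most 4.97 in every line. Among the other T and NK cell markers, NKG7, a granule gene, was at 10.99 in RS4;11 and 9.13 in SEM, against 6.39 in NALM6 and 7.11 in REH. The medians of the 10 T and NK cell markers were 4.88 in RS4;11 and 4.95 in SEM, against 4.92 in NALM6 and 4.81 in REH. The medians of the 8 myeloid markers were 5.58 and 5.37, against 5.31 and 5.76. In this list MPO (myeloperoxidase) was at 7.57 in REH and at most 4.79 elsewhere, CSF1R at 7.69 in SEM and at most 5.88 elsewhere, and LYZ (lysozyme) at 8.27 in RS4;11 and 8.50 in SEM, against 9.65 in NALM6 and 5.80 in REH. The medians of the 7 erythroid and megakaryocyte markers were 5.03 and 5.04, against 5.35 and 5.05. The part of these markers in the results below was not tested.

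MEIS1 was high in both t(4;11) lines and near background in both lines without the translocation, and it was the only cofactor gene to pass the test. Its log2 level was 11.30 in RS4;11 and 11.20 in SEM, against 4.92 in NALM6 and 4.82 in REH. The groups lay far apart, and the lines within a group were within 0.10 of each other. Of all genes, 63.5% had at least its gap between RS4;11 and SEM, and 66.4% at least its gap between NALM6 and REH. The levels of NALM6 and REH lay below the 25th percentile of their arrays, and those of RS4;11 and SEM above the 75th. The means were 11.25 ± 0.07 in the t(4;11) lines and 4.87 ± 0.07 in the lines lacking it (SD, n = 2 each). The log2 difference was 6.37 (SE 0.10, 95% interval 6.08 to 6.67), which is 82.9-fold, with an adjusted p of 0.0212 by limma's moderated test over 18377 genes.

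Since the levels in NALM6 and REH cannot be told from background, the fold and its interval are set against a floor and are a compressed measure. Of all genes, 0.0218% passed in either direction (4 genes) and 0.0109% were called higher. The call rested on all 4 arrays. Without RS4;11, SEM, NALM6 or REH the adjusted p was 0.152, 0.224, 0.115 and 0.14, while the difference stayed between 6.32 and 6.42, and 0 of 18377 genes passed limma's threshold in any of these fits, with 1 residual degree of freedom. For 1 gene with 2 lines against 2, the smallest p of an exact permutation test is 0.333.

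**Figure D1:**
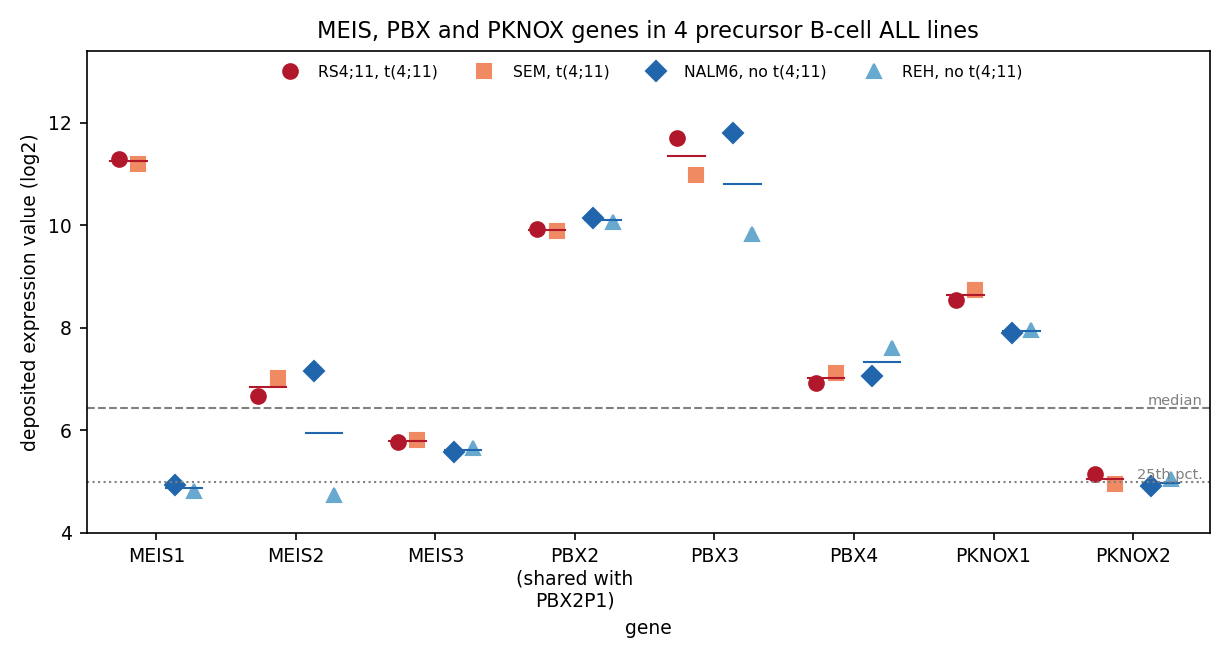
Deposited log2 values (vertical axis) of the cofactor genes (horizontal axis), with 1 point per line, the t(4;11) lines RS4;11 and SEM left of NALM6 and REH, short bars for group means, and grey lines at the mean over arrays of the 25th percentile (dotted) and the median (dashed) of all probe sets. MEIS1 lies at 11.30 and 11.20 in the t(4;11) lines and at 4.92 and 4.82 in the others, while MEIS2 and PBX3 are lowest in REH.

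MEIS2, the closest relative of MEIS1 and also a partner of PBX proteins, was low in REH alone. It was at 6.66 in RS4;11 and 7.02 in SEM, against 7.17 in NALM6 and 4.74 in REH. NALM6 was the highest line and the groups overlapped. REH lay below the 25th percentile of its array and the other 3 lines lay above the median of theirs. The group difference of 0.89 had a wide error (SE 0.95, 95% interval -1.98 to 3.76, limma adjusted p = 0.798), and it was -0.32 without REH and 2.10 without NALM6. REH minus the mean of the other lines was -2.21. NALM6 exceeded REH by 2.43, a gap that 2.49% of all genes reached or exceeded in size, while RS4;11 minus SEM was -0.36. Since each line had 1 array, the order of lines has no error of its own and is given as a description, for this gene and for those that follow.

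MEIS3, the third MEIS gene, stayed below the array median in every line. Its own probe set was at 5.77 in RS4;11 and 5.82 in SEM, against 5.58 in NALM6 and 5.66 in REH. The t(4;11) lines lay just above the others, with a difference of 0.17 (SE 0.09, 95% interval -0.11 to 0.44, limma adjusted p = 0.688), a size reached by 46.9% of all genes. A further 2 probe sets shared with the pseudogene MEIS3P1 were at 5.13 and 5.05 against 5.10 and 5.03, and at 4.54 and 4.48 against 4.57 and 4.57, in the same order of lines. Neither of the shared probe sets had an adjusted p below 0.869 in a fit of all 32968 probe sets.

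PBX2, a PBX gene active in most tissues, had similar values in all 4 lines, as far as its probe sets can show. One of the 2 shared with PBX2P1 was at 9.92 in RS4;11 and 9.89 in SEM, against 10.15 in NALM6 and 10.06 in REH. The other was at 9.81 and 9.78, against 10.03 and 9.92. On both, the t(4;11) lines lay a little below the others without overlap, by 0.20 (SE 0.10, 95% interval -0.48 to 0.08) and 0.18 (SE 0.10, 95% interval -0.47 to 0.11). The adjusted p was 0.655 and 0.694 in limma's fit of all probe sets. The 2 probe sets carry the same gene annotation, so they are no independent evidence of each other, and signal from the gene and from the pseudogene cannot be told apart.

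PBX3, the PBX gene known as a partner of MEIS1 and HOXA9 in leukaemia, was above the 75th percentile of the array in every line. It was at 11.70 in RS4;11 and 10.98 in SEM, against 11.79 in NALM6 and 9.82 in REH. The groups overlapped, with NALM6 the highest line and REH the lowest, as for MEIS2. The group difference was 0.54 (SE 0.82, 95% interval -1.92 to 2.99, limma adjusted p = 0.858), and it was -0.45 without REH and 1.52 without NALM6. NALM6 exceeded REH by 1.97, or 3.93-fold, a gap reached by 3.36% of genes, and RS4;11 exceeded SEM by 0.73, a gap reached by 9.42%. PBX3-DT, the divergent transcript next to PBX3, was at 4.89 in RS4;11 and 4.98 in SEM, against 5.36 in NALM6 and 4.91 in REH, near the 25th percentile in 3 lines.

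PBX4, a PBX gene known in mouse for its expression in testis, varied less. It was at 6.92 in RS4;11 and 7.12 in SEM, against 7.06 in NALM6 and 7.60 in REH. REH was the highest line here, and SEM lay between NALM6 and REH, so the groups overlapped. The difference was -0.32 (SE 0.24, 95% interval -1.04 to 0.40, limma adjusted p = 0.745), -0.59 without NALM6 and -0.046 without REH.

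PKNOX1, which competes with MEIS proteins for PBX, was moderately higher in both t(4;11) lines without passing the adjustment. It was at 8.53 in RS4;11 and 8.74 in SEM, against 7.90 in NALM6 and 7.96 in REH. The groups did not overlap, and the gap between the nearest lines was 0.57. The means were 8.64 ± 0.15 in the t(4;11) lines and 7.93 ± 0.04 in the lines lacking it (SD, n = 2 each). The difference of 0.71 (SE 0.12, 95% interval 0.35 to 1.06), which is 1.63-fold, had an unadjusted limma p of 0.00691 and an adjusted p of 0.328. An unadjusted p below 0.05 was reached by 9.39% of all genes and by 2 of these 7, MEIS1 and PKNOX1. The PKNOX1 difference stayed between 0.60 and 0.81 over all alternatives.

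PKNOX2, its paralog, is known for a narrower tissue pattern, and here it stayed near the 25th percentile in all 4 lines. It was at 5.16 in RS4;11 and 4.95 in SEM, against 4.91 in NALM6 and 5.04 in REH. The groups overlapped, and the difference was 0.076 (SE 0.13, 95% interval -0.31 to 0.46, limma adjusted p = 0.876).

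**Figure D2:**
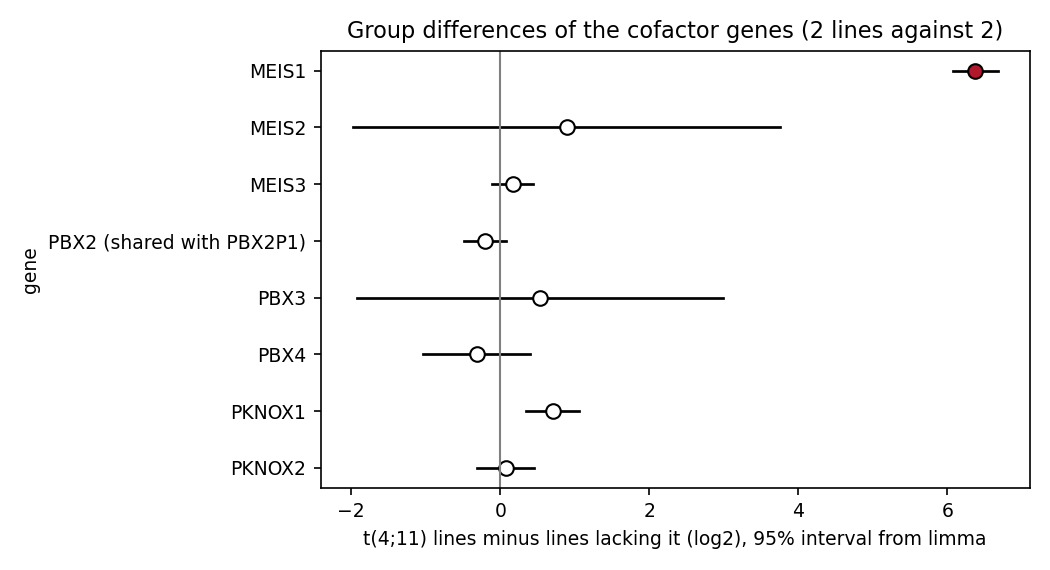
Log2 difference between the t(4;11) lines and the lines lacking it (horizontal axis) for each cofactor gene (vertical axis), with 95% intervals from limma, the filled point marking an adjusted p below 0.05. PBX2 is shown by the shared probe set with the higher mean, from the fit of all probe sets. The MEIS1 interval of 6.08 to 6.67 lies apart from the rest, and the widest intervals are those of MEIS2 and PBX3.

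Among the 7 genes with a probe set of their own, 1 was called higher in the t(4;11) lines and 0 lower by limma. Their groups did not overlap in 3 (MEIS1, MEIS3 and PKNOX1), each higher in the t(4;11) lines, where 42.8% of all genes had groups that did not overlap namely 23% higher and 19.8% lower. A separation of at least 2-fold between the nearest lines was found for MEIS1 alone, against 1.84% of all genes in either direction and 0.963% in the same direction. The median difference of the 7 was 0.54, beside 0.013 over all genes. Their median range over the 4 lines was 0.84, beside 0.38 over all genes, and 2 of them (MEIS1 and MEIS2) ranged over at least 2, as did 7.56% of all genes. The range of PBX3, 1.97, lay just below that. All genes here include those near background in every line, and the ranges were not matched for level.

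**Figure D3:**
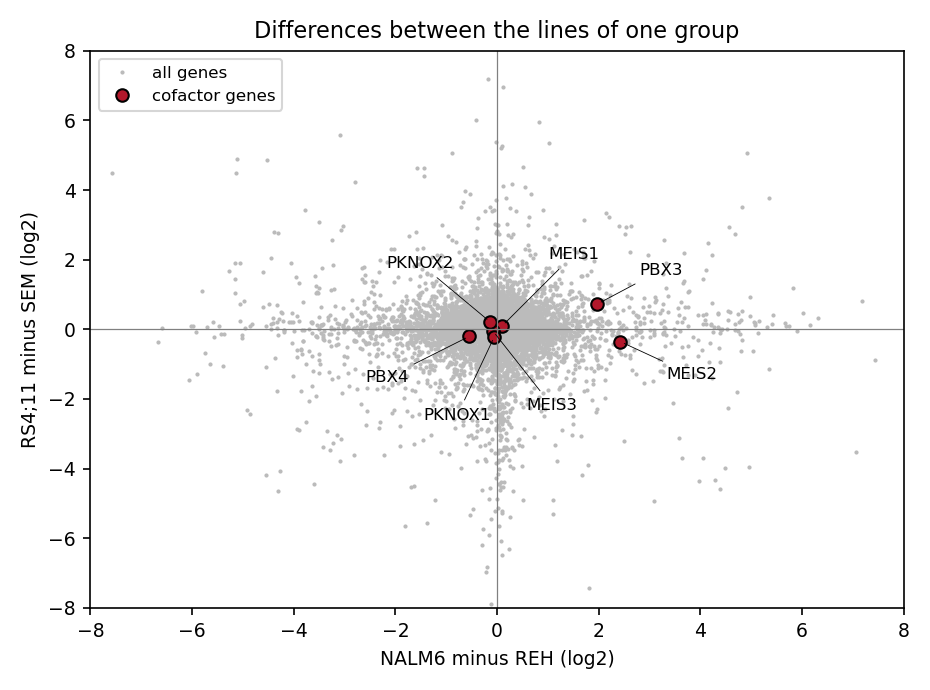
Difference between the lines of one group, NALM6 minus REH (horizontal axis, log2) against RS4;11 minus SEM (vertical axis, log2), for all 18377 genes (grey) and the 7 cofactor genes (red). MEIS2 at 2.43 and PBX3 at 1.97 lie to the right, and MEIS1 lies near the centre at 0.10 on both axes.

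Patterns like those of MEIS1 and MEIS2 were looked up over the 4 lines, as the genes with the smallest root mean square difference after each gene was centred on its own mean. For MEIS1 these were PTPRR (0.15), LAMP5 (0.18), CD96 (0.25), PRSS12 (0.29) and CPNE8 (0.47). PTPRR, a receptor tyrosine phosphatase gene, was at 11.18 in RS4;11 and 11.48 in SEM, against 5.13 in NALM6 and 4.89 in REH. CD96, a surface receptor gene of the immunoglobulin family, was at 12.22 and 12.03, against 5.28 and 5.83. Like MEIS1, both were high in the 2 t(4;11) lines and low in the other 2. For MEIS2 the nearest were HEBP2 (0.10), PDLIM1 (0.13), SMIM15 (0.13), TIGAR (0.14) and ZNF284 (0.16). HEBP2, a haem-binding protein gene, was at 10.38 in RS4;11 and 10.52 in SEM, against 10.68 in NALM6 and 8.42 in REH, and TIGAR, a regulator of glycolysis, at 8.15 and 8.23, against 8.29 and 5.92. Each was thus lowest in REH. The likeness follows from the way these genes were picked and rests on 4 values per gene, and no test was made.

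The nearest measured genes on either side were set beside MEIS1, MEIS2 and PBX3, in the RefSeq order. SPRED2, an inhibitor of Ras signalling on one side of MEIS1 on chromosome 2, was at 8.35 in RS4;11 and 9.81 in SEM, against 9.37 in NALM6 and 8.67 in REH. ETAA1, a replication stress gene on the other side, was at 8.74 and 8.84, against 8.52 and 8.60 (difference 0.23, SE 0.10, limma adjusted p = 0.617). Neither approached the span of MEIS1. Next to MEIS2 on chromosome 15, TMCO5A lay between 4.92 and 5.09 and CSNK1A1P1 between 5.46 and 5.55 in all 4 lines. MVB12B, beyond PBX3 on chromosome 9, was lowest in NALM6 at 5.82 and highest in REH at 7.42, where PBX3 was highest in NALM6 and lowest in REH, while RS4;11 (7.16) exceeded SEM (6.69) as for PBX3. No measured neighbour of any of the 8 genes had an adjusted p below 0.517.

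HOX genes encode the main DNA-binding partners of these cofactors, and 27 of 39 had a probe set of their own. Of the HOXA genes only HOXA2 was among the 27, so the counts that follow do not cover HOXA9 or the rest of that cluster, and beside HOXA2 draw on HOXB, HOXC and HOXD genes. By limma 0 of the 27 passed and 0 had an unadjusted p below 0.05, where 0.0218% and 9.39% of all genes did. The median difference of the 27 was 0.0028. In 26 of the 27 the level lay below the array median in all 4 lines. The exception was HOXA2, at 7.72 in RS4;11 and 7.30 in SEM, against 5.32 in NALM6 and 8.19 in REH (difference 0.75, SE 1.12, adjusted p = 0.855). HOXA2 was thus low in NALM6 alone. HOXB9 and HOXC9 reached 5.15 and 5.43 in REH and at most 5.01 elsewhere, and HOXB4 was at 5.39 in RS4;11 and 5.15 in SEM, against 5.09 in NALM6 and 5.07 in REH. The groups did not overlap in 18.5% of the 27, beside 42.8% of all genes. The other HOX genes were not analysed here.

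Of 9 measured TALE homeobox genes of the IRX, TGIF and MKX families, 0 passed, where 0.0218% of all genes did. An unadjusted limma p below 0.05, which 9.39% of all genes reached, was found for 1 of them. This was IRX1, an Iroquois transcription factor gene, at 5.97 in RS4;11 and 6.24 in SEM, against 7.80 in NALM6 and 8.12 in REH. The t(4;11) lines lay below the array median and the others above it, with a difference of -1.85 (SE 0.18, adjusted p = 0.204), opposite in sign to that of MEIS1. IRX3 was at 6.16 and 6.61, against 5.99 and 7.33, with REH the highest line. IRX5 and TGIF2, a repressor of TGF-beta responses, had differences of -0.20 (SE 0.11) and 0.14 (SE 0.10). The median difference of the 9 was -0.038.

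Among 17 measured partners, coactivators and corepressors of the cofactors, 0 passed, where 0.0218% of all genes did. An unadjusted limma p below 0.05, which 9.39% of all genes reached, was found for 2 of them, in opposite directions. PBXIP1, whose protein binds PBX and blocks its binding to DNA, was at 6.55 in RS4;11 and 6.53 in SEM, against 7.19 in NALM6 and 7.60 in REH. The groups did not overlap (difference -0.85, SE 0.18, adjusted p = 0.405). CRTC3, a coactivator of CREB, was at 9.71 and 10.54, against 8.73 and 9.18 (difference 1.17, SE 0.37, adjusted p = 0.519). The corepressor gene TLE1 stood out in REH, at 10.64, and was between 8.17 and 8.25 in the other 3 lines. TLE4, also a corepressor gene, was instead lowest in REH, at 8.34. It was at 9.11 in RS4;11, 10.35 in SEM and 11.60 in NALM6. MEN1, which encodes the menin protein that tethers KMT2A to target genes, was at 8.60 in RS4;11 and 8.51 in SEM, against 9.27 in NALM6 and 8.82 in REH (difference -0.49, SE 0.20, adjusted p = 0.603). The list had a median difference of -0.075, and its groups did not overlap in 41.2% of members, beside 42.8% of all genes.

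Genes reported as targets of HOX proteins or MEIS1, mostly in myeloid cells and mouse models, did not move together. Of 19 measured, 0 passed, where 0.0218% of all genes did. At an unadjusted limma p below 0.05, which 9.39% of all genes reached, 1 was higher (LMO2) and 2 were lower (CYBB and HIF1A). The median difference of the 19 was -0.041. FLT3, a receptor tyrosine kinase gene of early progenitors, was at 11.34 in RS4;11 and 12.82 in SEM, against 8.46 in NALM6 and 10.35 in REH. The groups did not overlap, but lines of one group also lay well apart (difference 2.68, SE 0.93, adjusted p = 0.555). CYBB, an NADPH oxidase subunit gene, had the reverse pattern of MEIS1, at 5.02 and 4.66, against 10.87 and 10.68 (difference -5.93, SE 0.18, adjusted p = 0.0513). ID2 and TRIB2 stood out in SEM rather than in both t(4;11) lines. ID2, an inhibitor of basic helix-loop-helix factors, was at 9.85 in SEM and between 7.29 and 7.43 in the other lines. TRIB2, a pseudokinase gene, was at 5.10 in RS4;11 and 10.03 in SEM, against 7.91 in NALM6 and 4.81 in REH. The groups did not overlap in 36.8% of the 19, beside 42.8% of all genes.

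**Figure D4:**
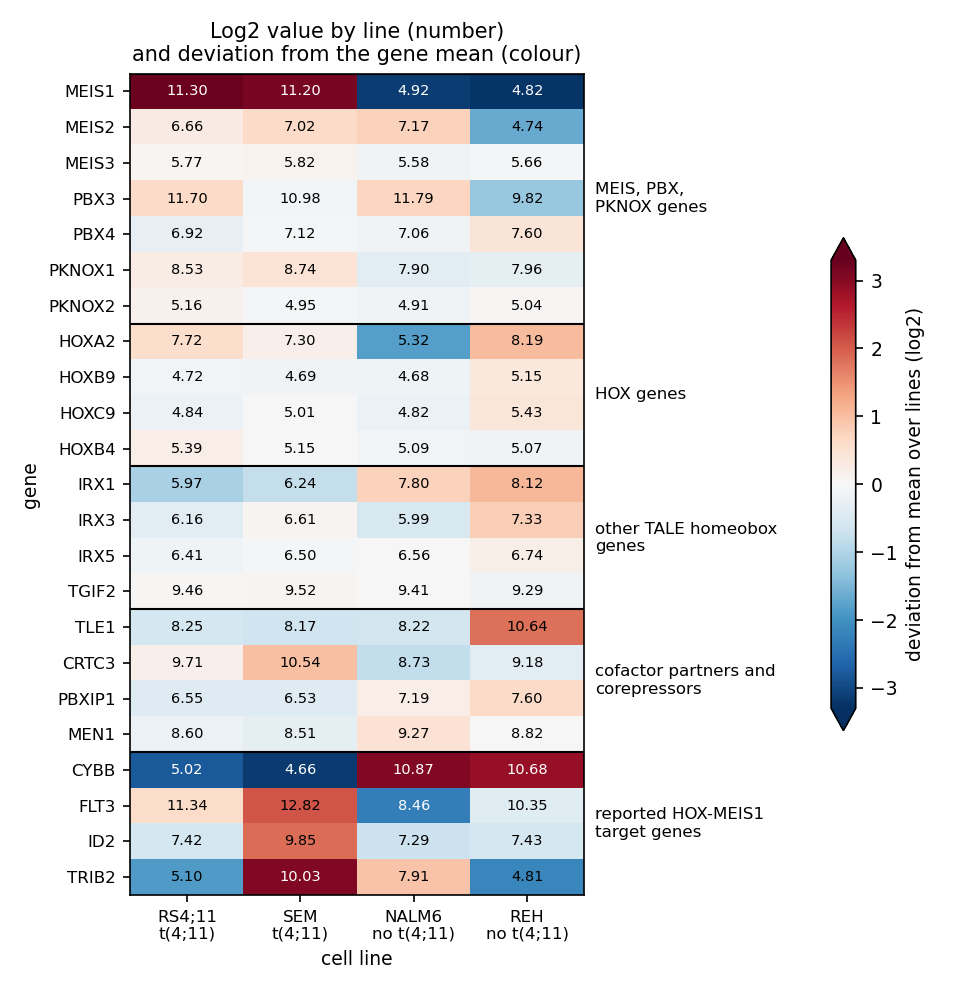
Log2 values (numbers) of the 7 cofactor genes and of the 4 genes with the largest group differences in each of 4 lists (rows), by line (columns, t(4;11) lines on the left), with colour for the deviation from the gene's mean over the lines. MEIS1 (11.30 and 11.20 against 4.92 and 4.82) and CYBB (5.02 and 4.66 against 10.87 and 10.68) divide the lines by translocation in opposite directions, while TLE1 stands out in REH and ID2 in SEM.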

How the data were processed

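Arrays of 4 cell lines were compared, with 1 array per line. The deposited log2 values were made by the authors with RMA and Partek, per the submitters' processing notes. Both are listed with versions and roles not given in the sources used here. From a range of 3.44 to 14.3, the scale was inferred to be log2. RMA's quantile step removes differences in total signal, and array number limits the precision.

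The platform annotation listed 1 gene symbol for 19310 of 32968 probe sets, several for 1752 and none for 11906. Only those with 1 were named, 19279 of them matched RefSeq (GRCh38.p14) by Entrez ID, and the highest-mean probe set stood for a gene, which gave 18377 genes. RefSeq supplied names, gene order and promoter windows, and the probe positions were not used.

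Groups followed the labels. They were compared with limma 3.58.1 (lmFit, eBayes) in R 4.3.3 without covariates, two-sided, and p-values were adjusted by Benjamini and Hochberg's method over all genes (threshold 0.05). Residual and prior degrees of freedom were 2 and 1.34. The fit was tested on simulated data with known changes. In 10 simulations it called 3.2% of 2-fold, 67.4% of 4-fold and 94.6% of 64-fold changes. Of the unchanged genes 8.7 were called per simulation. Changes of about 2-fold would thus mostly be missed. A count of 0 in a list therefore does not show that its genes were alike between the groups.

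The members and gene lists were chosen with earlier results of these data known. Named were all members, up to 4 genes per list with the largest differences and any others that passed, the 5 nearest patterns of members that ranged over at least 2 on the log2 scale, and measured neighbours. LMO2, HIF1A, TLE4, PAX5, CD22, CD79A, CD79B, RAG1, VPREB1, CD72, IGLL1 and the CD3 genes were named after their values were seen. The alternatives were other scalings, the mean over probe sets, leaving out dim genes (no value reaching 6.75), an intensity trend, robust eBayes, a threshold of 0.1 and leaving out each line; centring on gene medians and a fit of all probe sets were added after seeing the data. Plots used Python 3.11.15 and matplotlib 3.10.9.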

Additional observations from a re-analysis of the deposited data

How the results depend on the processing

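MEIS1 passed the threshold under each alternative to scaling, filter or variance model that kept all 4 lines (limma adjusted p 0.02 to 0.0455). The MEIS1 difference stayed between 6.32 and 6.42 in all settings. MEIS1 was kept by the filter on dim genes only through the t(4;11) lines, where it was high. Its pass under that filter therefore adds no support. The mean over probe sets could not change a cofactor gene's values, since each of the 7 had 1 probe set of its own. The count of cofactor genes past the threshold was 1 in each fit with all lines, at a threshold of 0.1 and in the fit of all probe sets, and 0 to 0 when a line was left out. None of the other cofactor genes passed in any setting. The count over all genes, 4 as reported, was 17 without dim genes, 9 after repeated quantile normalization, 28 with arrays centred on their gene medians, 12 of all probe sets, 42 at a threshold of 0.1 and 0 to 0 when a line was left out. HOX genes past the threshold numbered 0 in every fit over genes. Signs turned in 3 cases, each with a line left out: MEIS2 (-0.32) and PBX3 (-0.45) without REH, and PKNOX2 (-0.029) without RS4;11. Over the fits without a line the differences ran from -0.32 to 2.10 for MEIS2, from -0.45 to 1.52 for PBX3 and from -0.029 to 0.18 for PKNOX2. Leaving out a line leaves 1 residual degree of freedom, which bears on the p-values and not on these differences. Without REH, NALM6 alone stood for its group, at 7.17 for MEIS2 and 11.79 for PBX3, where REH was at 4.74 and 9.82. Why the lines differ was not tested. Removal of dim genes left 5 of the 7 cofactor genes, without MEIS3 and PKNOX2. No paired analysis was made, because the labels do not pair a line of one group with a line of the other. Levels near the 25th percentile of an array, as of PKNOX2 in all lines and MEIS1 in NALM6 and REH, cannot be told from background.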
